A study of Mus musculus with 4 samples.

Results

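The genes described here belong to the interleukin 6 family of cytokines, whose receptors share the signalling chain gp130. They are the cytokine genes Il11, Lif and Clcf1, the receptor genes Il11ra1, Il6st (gp130 itself), Il6ra, Lifr and Osmr, and Socs3, an inhibitor of the pathway. All 9 were found by gene identifier among the 21971 genes of the count table. They were chosen by a list of names drawn up with the counts of these same 4 libraries known, above all the ratios of Il11 after TGFβ and between the lines. Their own values are therefore a description, without a test.

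Each of these cytokines binds receptor chains at the cell surface that include gp130. Interleukin 11 and interleukin 6 first bind a private chain (Il11ra1, Il6ra), whereas LIF uses the LIF receptor and oncostatin M in the mouse uses the oncostatin M receptor, each paired with gp130. Clcf1 signals through a receptor that also needs Cntfr. The receptors activate JAK kinases, which phosphorylate STAT3, and STAT3 induces Socs3, which in turn binds gp130 and shuts the signal off. TGFβ is known to induce interleukin 11 and LIF in several kinds of cell.

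RNA-seq libraries were made from NMuMG cells, a mouse mammary gland epithelial line that undergoes epithelial-to-mesenchymal transition (EMT) under TGFβ. All cells carried a stably expressed mutated human TRF1 (TRF1ΔN), a protein that binds telomeric DNA. In the TRF1ΔN line this was the protein alone, and in Vp16-TRF1ΔN cells it was fused to the Vp16 transcription activation domain, which per the series description raises RNA resembling TERRA, the transcript of telomeres. Each line was sampled at 0 h and after 24 h with TGFβ at 5 ng/ml, giving 4 groups of 1 library each. The question was how the fusion alters the EMT signature. Whether a line is 1 clone or a pool, and which promoter drives the construct, is not given in the sources used here. No 24 h library without TGFβ was among those analysed, so TGFβ and time in culture cannot be told apart.

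The libraries held 35423556 to 46001039 counts, with the Vp16-TRF1ΔN library at 24 h the shallowest. The row named VP16 had 0 and 1 counts in TRF1ΔN cells and 15 and 27 in Vp16-TRF1ΔN cells, while the row named TRF1DN stood at 39.0 and 186 CPM against 2.85 and 4.65 CPM, so the lines also differ in the counts of this row. Its part in the differences between lines below was not tested. Epithelial keratins were abundant (Krt8 at 1570 to 2100 CPM, Krt18 at 2500 to 3930), and Cdh1 was at 108 to 368 CPM, but the epithelial gene Epcam reached at most 0.377 CPM. Ptprc, the marker of all leukocytes, had at most 0.146 CPM, the adipocyte gene Adipoq at most 1 count and the endothelial gene Pecam1 at most 3. Other markers of these lists were higher. Cd68, on the immune list, was at 2.93 to 3.21 CPM. The endothelial gene Cdh5 went from 4 to 50 counts after TGFβ in TRF1ΔN cells and from 5 to 24 in Vp16-TRF1ΔN cells. CPM, the usual unit of counts scaled for library size, were computed with edgeR's TMM factors. The summed epithelial markers were at 6120 to 6400 CPM in the 4 libraries, but this sum rests mostly on keratins and its members moved apart. In the edgeR test described further on, Krt8, Krt18 and Cldn4 rose after TGFβ and Krt19, Muc1 and Cdh1 fell (7 tested, Epcam did not pass). Krt19 was at 1560 and 1650 CPM at 0 h and 82.9 and 270 CPM at 24 h, Muc1 at 33.1 and 33.2 and then 2.6 and 3.94 CPM, and Cldn4 had 1 count in each 0 h library and 563 and 152 at 24 h. The mesenchymal ones were at 3420 and 3350 CPM at 0 h and 5150 and 4850 CPM at 24 h, TRF1ΔN first. Most of this sum was Vim (3150 to 3700 CPM), which did not pass (adjusted p = 0.134, edgeR). The other 6 of 7 tested rose, among them Fn1, from 106 to 1340 CPM in TRF1ΔN cells and from 78.0 to 796 CPM in Vp16-TRF1ΔN cells. Summed fibroblast markers (2 of 3 with a row) were at 0.586 and 0.811 CPM at 0 h and 2.72 and 2.19 at 24 h. Nearly all of this was Pdgfra, with 26 and 114 counts in TRF1ΔN cells and 33 and 75 in Vp16-TRF1ΔN cells. Dcn went the other way, from 2 counts to 0 in each line. Summed endothelial markers were at 0.126 and 0.139 CPM and then 1.26 and 0.76. The part of these cell states in the results below was not tested.

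The promoters of the genes that stood higher after TGFβ are shown first, together with that of Socs3, which stood lower. RefSeq promoter entries (build GRCm38.p6, 250 bases before to 50 after a start) existed for 8 of the 9 genes, as 11 entries; Clcf1 had none. Sequences run 5′ to 3′ on the gene's strand, and capitals mark every match, on either strand, of the 8 motifs searched. These were AP-1 (TGANTCA), STAT (TTCNNNGAA), a stricter STAT3 form (TTCCNGGAA), a GC-rich SMAD motif (GGCGCC), the SMAD palindrome (GTCTAGAC), the E-box bound by Snail and Zeb factors (CACCTG), the box of core promoters (TATAAA) and the cyclic AMP response element (TGACGTCA). The STAT motif includes the stricter form. Il11 lies at chr7:4778092-4778391 (minus strand, 1 of its 2 entries), Lif at chr11:4257318-4257617 (plus), Osmr at chr15:6874264-6874563 (minus) and Socs3 at chr11:117969317-117969616 (minus).
Il11: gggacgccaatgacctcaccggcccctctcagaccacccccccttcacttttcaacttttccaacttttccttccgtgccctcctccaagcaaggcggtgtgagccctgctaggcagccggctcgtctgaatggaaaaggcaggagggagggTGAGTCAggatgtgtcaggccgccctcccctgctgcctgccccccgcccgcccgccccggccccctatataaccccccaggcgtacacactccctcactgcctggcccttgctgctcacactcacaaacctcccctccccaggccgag
Lif: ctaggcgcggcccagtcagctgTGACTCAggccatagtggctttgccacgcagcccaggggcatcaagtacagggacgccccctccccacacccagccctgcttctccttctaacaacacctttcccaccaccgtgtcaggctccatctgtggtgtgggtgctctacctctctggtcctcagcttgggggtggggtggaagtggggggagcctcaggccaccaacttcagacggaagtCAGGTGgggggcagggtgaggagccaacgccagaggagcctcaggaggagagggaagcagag
Osmr: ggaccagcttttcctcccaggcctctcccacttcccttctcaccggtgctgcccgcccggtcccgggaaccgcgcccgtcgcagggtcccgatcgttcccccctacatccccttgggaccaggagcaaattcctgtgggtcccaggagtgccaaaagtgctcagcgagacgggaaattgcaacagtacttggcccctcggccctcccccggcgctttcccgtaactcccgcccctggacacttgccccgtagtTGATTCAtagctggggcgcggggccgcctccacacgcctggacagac
Socs3: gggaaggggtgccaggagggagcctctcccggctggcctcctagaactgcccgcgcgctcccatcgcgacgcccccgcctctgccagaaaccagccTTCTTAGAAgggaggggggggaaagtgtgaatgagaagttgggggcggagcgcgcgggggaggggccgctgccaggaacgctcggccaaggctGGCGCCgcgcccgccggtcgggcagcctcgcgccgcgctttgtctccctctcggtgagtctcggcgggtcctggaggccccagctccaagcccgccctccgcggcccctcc

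An AP-1 match was present in the promoters of Il11 (TGAGTCA, beginning at -98 from the start), Lif (TGACTCA, at -228) and Osmr (TGATTCA, at 3). These were the only members among the 8 with an entry that held one, and 7.81% of all 32851 promoter entries do. The other Il11 entry, at chr7:4782808-4783107, held none of the 8 motifs. The Lif promoter also held an E-box (-12). Socs3 had a STAT match (TTCTTAGAA, at -154), present in 8.3% of entries, and a GC-rich SMAD match (-61), present in 11.9%. Il6st and both Il11ra1 entries held no match, Il6ra 1 E-box, and Lifr 2 GC-rich SMAD matches in one entry and an E-box in the other. Genes with several entries had more chances of a match. A match is a description of these letters and not evidence of binding.

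In GENCODE M21 (build GRCm38) the genes span chr7:4772373-4782859 (Il11), chr11:4257557-4272514 (Lif), chr19:4214238-4223490 (Clcf1), chr4:41699989-41769474 (Il11ra1), chr13:112464070-112510086 (Il6st), chr3:89864059-89913196 (Il6ra), chr15:7090614-7197489 (Lifr), chr15:6813577-6874969 (Osmr) and chr11:117966079-117970047 (Socs3). Among the ligand genes, Il11 had the steepest change. It had 31 counts (0.649 CPM) at 0 h and 6976 counts (166 CPM) at 24 h in TRF1ΔN cells, and 11 (0.255 CPM) and 589 counts (17.2 CPM) in Vp16-TRF1ΔN cells. Both 24 h libraries were thus far above both 0 h libraries, and the Vp16-TRF1ΔN line was the lower of the lines at either time. The TGFβ ratio was 256-fold in TRF1ΔN cells (95% counting interval 180 to 377) and 67.5-fold in Vp16-TRF1ΔN cells (37.4 to 136). Ranked by log2 ratio among the 11778 genes whose mean reached 1 CPM, Il11 was number 5 from the top in the first line and number 19 in the second. In the authors' deposited normalized log2 values it went from 4.81 to 12.74 and from 3.53 to 9.47.

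Between the lines, Il11 was 2.54-fold lower in Vp16-TRF1ΔN cells at 0 h (1.24 to 5.61, from 11 against 31 counts) and 9.66-fold lower at 24 h (8.88 to 10.5). The log2 TGFβ ratio was smaller in Vp16-TRF1ΔN cells by a difference of -2.09 (-3.03 to -1.16). Log2 ratios use a prior count of 2, which lowers the ratio over 11 counts more than that over 31, so this difference is larger than the folds above give. With 1 library a group, these intervals cover counting error only, and variation between cultures was not measured. In bulk RNA, fewer cells that express a gene and less RNA per cell cannot be told apart.

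Lif, which encodes leukaemia inhibitory factor, was already well measured at 0 h. It had 810 counts (16.9 CPM) and 4656 counts (111 CPM) in TRF1ΔN cells and 660 (15.3 CPM) and 1496 counts (43.7 CPM) in Vp16-TRF1ΔN cells. The lines were close at 0 h, 1.11-fold lower in Vp16-TRF1ΔN cells with an interval that includes 1 (0.998 to 1.23), and apart at 24 h, when Lif was 2.54-fold lower in Vp16-TRF1ΔN cells (2.39 to 2.69). The TGFβ ratio was 6.54-fold (6.07 to 7.06) in TRF1ΔN cells and 2.86-fold (2.60 to 3.14) in the other, a difference of -1.20 on the log2 scale (-1.37 to -1.03). Lif and Il11 thus shared the order of the 24 h libraries. At 0 h the interval of Lif only just included 1, and that of Il11, from 11 against 31 counts, did not include it.

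Clcf1, which encodes cardiotrophin-like cytokine factor 1, had the highest level per length of these 3 ligands at 0 h and the smallest TGFβ ratio. Its level was 58.6 and 95.1 CPM in TRF1ΔN cells and 56.0 and 83.6 CPM in Vp16-TRF1ΔN cells. Both lines showed more after TGFβ, 1.62-fold (1.55 to 1.70) and 1.49-fold (1.41 to 1.58), and the lines differed little at 24 h (ratio 0.880, 0.838 to 0.923). In the annotation, Clcf1 overlaps the transcript model AC109138.7 on its own strand, neither of its 2 overlapping genes has a row in the count table, and how the counting treated shared reads is not given in the sources used here.

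**Figure D1:**
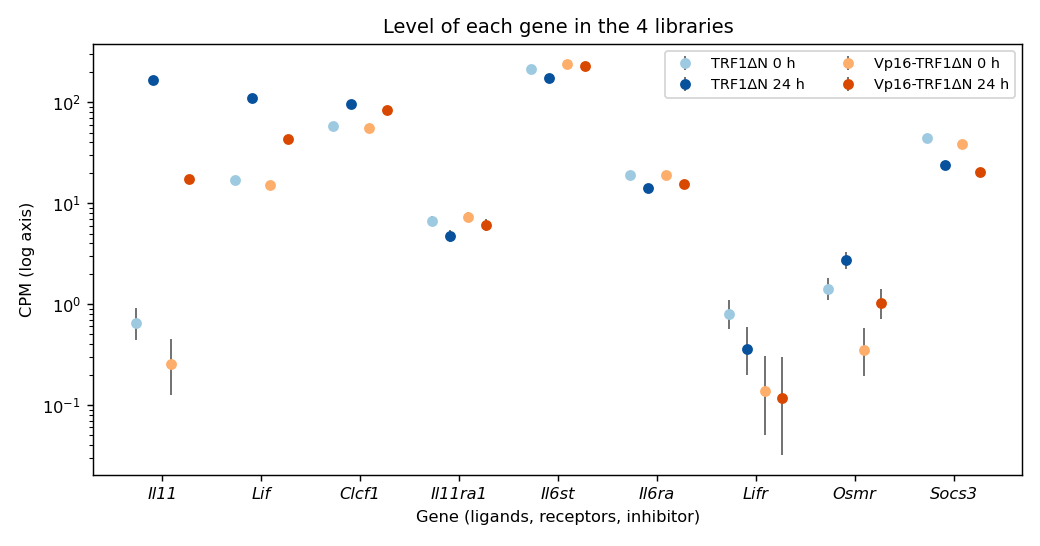
CPM (log axis) of the 9 genes in each library, with exact 95% Poisson intervals as bars; blue marks the TRF1ΔN line and orange the Vp16-TRF1ΔN line, with the darker shade for 24 h. Il11 spans 0.255 to 166 CPM, whereas Il6st stays between 174 and 237 CPM.

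Among the receptor genes, Il6st, Il6ra and Il11ra1 had ratios nearer to 1 than Il11 or Lif, and Osmr and Lifr had few counts. Il6st, which encodes gp130, was at 214 and 174 CPM in TRF1ΔN cells and 237 and 230 CPM in Vp16-TRF1ΔN cells, a TGFβ ratio of 0.815 (0.790 to 0.840) and 0.967 (0.939 to 0.996). At 24 h Vp16-TRF1ΔN cells had 1.32-fold more (1.27 to 1.36), opposite to Il11 and Lif. Il6ra, the interleukin 6 receptor chain, went from 19.0 to 14.2 CPM and from 19.1 to 15.6 CPM, ratios of 0.748 (0.674 to 0.830) and 0.818 (0.732 to 0.913). The line ratio was 1.0 for untreated cells (0.912 to 1.1) and 1.1 for treated ones (0.975 to 1.24), both with intervals that include 1. An annotated gene of the opposite strand, Gm42809, overlaps Il6ra and has its own row.

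Il11ra1, the chain that binds interleukin 11, had 321 and 198 counts in TRF1ΔN cells and 318 and 209 in Vp16-TRF1ΔN cells. Its TGFβ ratios were 0.702 (0.585 to 0.841) and 0.828 (0.692 to 0.989), so the receptor was somewhat lower after TGFβ in both lines. The ratio of Vp16-TRF1ΔN over TRF1ΔN cells was 1.1 at 0 h (0.937 to 1.29). At 24 h it was 1.29 (1.06 to 1.58), in the same direction as for Il6st. The near-identical gene Il11ra2 has no row in the table used here, and 5 of the 6 genes that overlap Il11ra1 lie on the opposite strand. Reads of these genes could have been assigned differently by the counting, so the level of Il11ra1 is uncertain.

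Osmr, the oncostatin M receptor, was scarce: 68 and 114 counts in TRF1ΔN cells and 15 and 35 in Vp16-TRF1ΔN cells. In CPM these are 1.42 and 2.72 against 0.348 and 1.02, so the Vp16-TRF1ΔN library at 24 h stood below the untreated TRF1ΔN library. The TGFβ ratio was 1.91-fold (1.40 to 2.62) and 2.94-fold (1.56 to 5.80) in the respective lines, and the 2 responses differed by 0.52 on the log2 scale with an interval that includes 0 (-0.42 to 1.45). Between lines Osmr was 4.09-fold lower at 0 h (2.31 to 7.71), and the 24 h value was 2.66-fold lower (1.80 to 4.0), in Vp16-TRF1ΔN cells.

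Lifr, the LIF receptor, had the lowest level per length of the members in every library, with 38 and 15 counts in TRF1ΔN cells and 6 and 4 in Vp16-TRF1ΔN cells. At 0 h it was 5.72-fold lower in Vp16-TRF1ΔN cells (2.40 to 16.5). At 24 h the interval of the ratio of 0.327 reached 1.03 (from 0.0790), so a difference was not detectable at this depth. In the TRF1ΔN line it was 2.23-fold lower after TGFβ (1.20 to 4.35), and in the other line 4 against 6 counts allow no direction (0.174 to 3.54).

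Socs3, the feedback inhibitor of gp130 signalling, was lower after TGFβ by about the same factor in both lines. It went from 2108 to 1000 counts (44.1 to 23.8 CPM) in TRF1ΔN cells and from 1678 to 697 counts (38.9 to 20.4 CPM) in Vp16-TRF1ΔN cells. These are 1.85-fold (1.72 to 2.0) and 1.91-fold (1.75 to 2.09) lower, and the responses differed by -0.04 on the log2 scale (-0.21 to 0.12). Vp16-TRF1ΔN cells had 1.13-fold less before treatment (1.06 to 1.21) and 1.17-fold less after it (1.06 to 1.29). Il11 and Lif were higher at 24 h in both lines. With only a 0 h and a 24 h library for each line, no relation of Socs3 to them can be read from this.

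**Figure D2:**
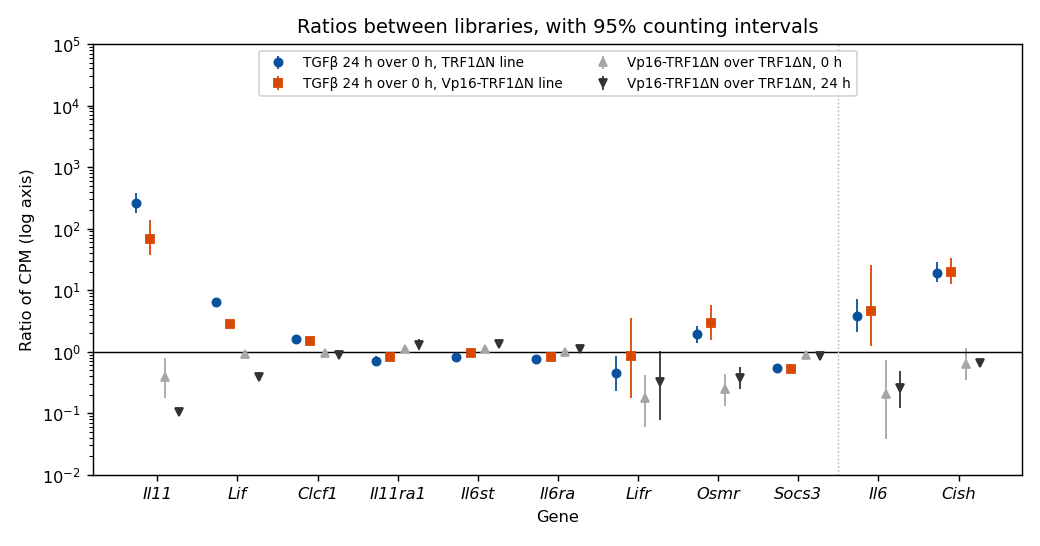
Ratios of CPM between pairs of libraries (log axis) with exact 95% counting intervals, for the 9 genes and, right of the dotted line, 2 other genes of the pathway; circles and squares are TGFβ over 0 h within a line, triangles are Vp16-TRF1ΔN over TRF1ΔN at a time. Il11 is 256-fold and 67.5-fold higher after TGFβ, and its line ratio is lower at 24 h than at 0 h.

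Genes were then counted when their ratio was at least 2-fold, their mean 1 CPM or more and the interval did not include 1. Of the 9 members 8 reached that mean, and Lifr did not. Il11 reached it only through its 24 h libraries and was under 1 CPM in both 0 h libraries. Osmr, at a mean of 1.38 CPM, reached it only through the TRF1ΔN libraries, so its entry into the counts between lines depends on the line in which it was high. In the TRF1ΔN line 2 members were counted as higher after TGFβ (Il11 and Lif) and 0 as lower, where 8.54% and 10.8% of the 11778 genes were. In the Vp16-TRF1ΔN line these 2 and Osmr were counted as higher and 0 as lower, beside 6.93% and 9.07% of all genes. The median log2 TGFβ ratio of the 9 members was -0.30 and -0.05 in the respective lines, against -0.01 and 0 over the genes with that mean. The members were chosen with these ratios known, so nothing is read from the counts.

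For the lines at 0 h, 2 members were counted as lower in Vp16-TRF1ΔN cells (Il11 and Osmr) and 0 as higher, where 0.416% and 0.195% of all genes were. At 24 h, 3 were counted as lower (Il11, Lif and Osmr) and 0 as higher, beside 1.18% and 2.11% of all genes. The difference of the TGFβ responses was counted as lower for Il11 and Lif and as higher for 0 members, beside 0.959% and 1.81% of all genes. The median log2 line ratio of the members was -0.15 at 0 h and -0.23 at 24 h, against 0 and -0.01 over all genes. Comparisons that share a library are not independent of each other.

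Levels can be compared between genes per length, as CPM per kb of exon in GENCODE M21. At 0 h the order in TRF1ΔN cells was Il6st (19.3 CPM per kb), Clcf1 (15.4), Socs3 (15.3), Lif (3.90), Il6ra (2.20), Il11ra1 (1.5), Il11 (0.312), Osmr (0.117) and Lifr (0.0738). Counting intervals overlapped for the neighbours Clcf1 and Socs3 and for Osmr and Lifr. The order was the same in the Vp16-TRF1ΔN library at 0 h, with the same overlaps. After TGFβ the ligands moved to the front of the TRF1ΔN line, with Il11 at 79.9 CPM per kb, then Lif (25.5) and Clcf1 (25.0), whose intervals overlapped, and then Il6st (15.7). In the Vp16-TRF1ΔN line at 24 h Clcf1 (22.0) and Il6st (20.7) led with overlapping intervals, followed by Lif (10.0) and Il11 (8.27). In every library the other receptor genes Il11ra1, Il6ra, Osmr and Lifr lay below Il6st, and per kb Il11ra1 was at 1.05 to 1.65.

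**Figure D3:**
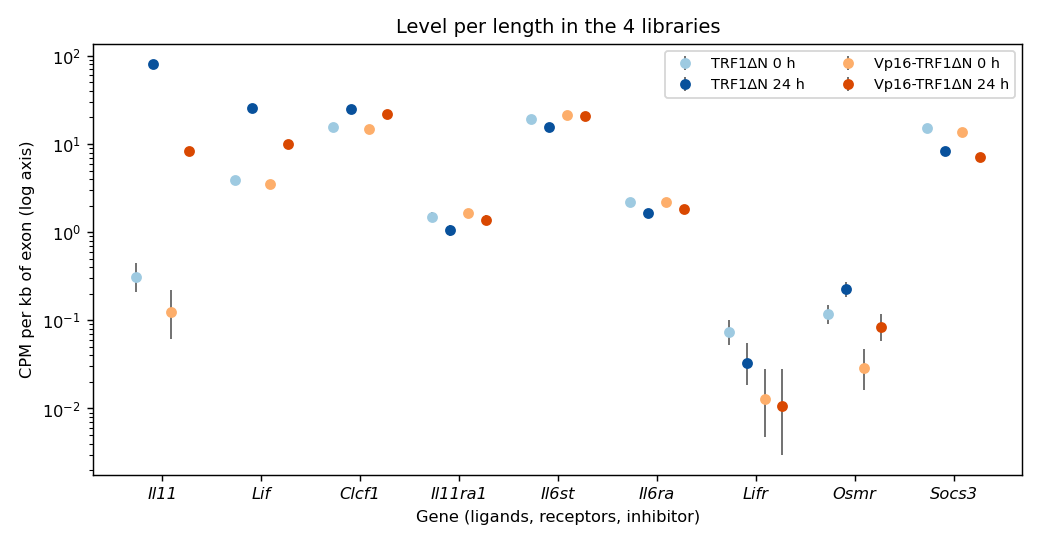
CPM per kb of exon (log axis) of the 9 genes in each library, with exact 95% Poisson intervals as bars and colours by line and time. Il11 is at 79.9 in the TRF1ΔN library at 24 h and 8.27 in the Vp16-TRF1ΔN library at 24 h.

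Other genes of the pathway were tested as lists written from general knowledge, but with earlier results of these data known. The lists are thus not independent of these libraries. The test was edgeR's quasi-likelihood test of the average TGFβ response in an additive model of line and TGFβ over all 4 libraries, which leaves 1 residual degree of freedom, taken up by the interaction of the 2 terms. Of 15042 genes tested, 47.1% were called at an adjusted p under 0.05, 22.8% as higher and 24.3% as lower, with a median log2 change of 0. The counts for each list below are to be set beside these shares. The noise behind these p-values is therefore the difference between the lines in their responses, moderated across genes. With 1 library a group, spread among cultures of a group was not measured. Whether the libraries came from separate cultures is not stated. Values after ± are SE.

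Of 9 further ligand and partner genes, 6 had a row and 5 were tested; 3 rose and 0 fell, with a median of 1.97. Il6, the founding cytokine of the family, rose by 1.97 ± 0.37 (adjusted p = 0.0145) but had only 16 and 53 counts in TRF1ΔN cells and 3 and 11 in Vp16-TRF1ΔN cells, and DESeq2's Wald test did not call it (adjusted p = 0.143). It was 4.81-fold lower in Vp16-TRF1ΔN cells at 0 h (1.38 to 25.8) and 3.93-fold lower at 24 h (2.03 to 8.34). The responses of Il6 differed by -0.16 on the log2 scale, with an interval that includes 0 (-1.84 to 1.51). Osm, which encodes oncostatin M, rose in the test (adjusted p = 0.0114, edgeR) from 0 to 40 counts in TRF1ΔN cells, where the exact 95% lower limit of the ratio was 11.8-fold. In the Vp16-TRF1ΔN line it had 0 and 4 counts, and the same limit of 0.832 includes no change. Leukocytes are a common source of both cytokines, and Ptprc had at most 7 counts in any library. Il6 and Osm were themselves scarce, and which cells their RNA came from was not tested. The summed level of the 3 immune markers with a row was 3.05 to 3.47 CPM in the 4 libraries, nearly all of it Cd68. The receptor genes Cntfr, Il27ra, Il31ra and Il11ra2 have no row in the table used here, so these chains were not analysed.

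Of 13 signal transducers 7 rose, 3 fell and 3 did not pass, with a median of 0.27. Gab2, a docking protein that couples receptors to the MAP kinase and PI3 kinase pathways, rose most (2.02 ± 0.08, adjusted p = 0.000738, edgeR), from 20.1 to 85.5 CPM and from 18 to 69.3 CPM. Stat3, the main transcription factor downstream of gp130, rose by 0.86 ± 0.08 (adjusted p = 0.00271), with ratios of 1.97 and 1.68 in the lines. The kinase genes Jak2 (0.77 ± 0.09, adjusted p = 0.00441) and Jak1 (0.46 ± 0.07, adjusted p = 0.00775) rose in the same test. Stat5a (-0.35 ± 0.10) and the adaptor gene Shc1 (-0.29 ± 0.06) fell, with adjusted p of 0.0436 and 0.0227 in edgeR, and neither was called by DESeq2's Wald test (adjusted p = 0.207 and 0.0576).

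The negative regulators went both ways, with 3 of 13 higher, 3 lower and 7 not passing (median -0.12). Cish, a relative of Socs3 that is induced mainly through STAT5, rose by 4.28 ± 0.17 (adjusted p = 0.000738, edgeR), from 33 to 559 and from 19 to 299 counts. Its TGFβ ratio was 19.3 (13.6 to 28.3) in TRF1ΔN cells and 19.8 (12.5 to 33.4) in the other, in contrast to Socs3, which was lower in both. Socs2 rose by 1.17 ± 0.15 (adjusted p = 0.00543) and Pias1, an inhibitor of STAT signalling, by 0.24 ± 0.07 (adjusted p = 0.0467, not called by DESeq2, adjusted p = 0.291). Ptpn6, the phosphatase SHP1, fell by 2.44 ± 0.25 (adjusted p = 0.00302) and Socs5 by 0.45 ± 0.10 (adjusted p = 0.0223). The receptor phosphatase gene Ptprt, named after its values were seen, also fell (-1.31 ± 0.37, adjusted p = 0.043, edgeR) at a mean of 0.604 CPM, and was not called by DESeq2 (adjusted p = 0.298). Socs1 had 62 and 61 counts in TRF1ΔN cells and 54 and 22 in the other and did not pass (-0.32 ± 0.36, adjusted p = 0.505, edgeR). This test averages the lines. Socs1 differed little between the lines at 0 h (1.04-fold lower in Vp16-TRF1ΔN cells, 0.708 to 1.52). At 24 h it was 2.26-fold lower there (1.37 to 3.87), and the responses differed by -1.07 on the log2 scale (-1.92 to -0.21).

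Of 23 measured STAT3 target genes 8 rose, 10 fell and 5 did not pass, with a median of -0.09. Fosl2, an AP-1 subunit, rose by 2.31 ± 0.14, the kinase gene Pim1 by 2.07 ± 0.18 and Timp1, an inhibitor of metalloproteinases, by 2.03 ± 0.12, with adjusted p of 0.00113, 0.00211 and 0.00111 (edgeR). Muc1 (-3.36 ± 0.17), the adhesion molecule gene Icam1 (-1.82 ± 0.25) and Birc5, which encodes survivin (-1.73 ± 0.15), fell, with adjusted p of 0.000901, 0.00621 and 0.00226. Muc1 is also on the list of epithelial markers used here, and Birc5 is known as a gene of dividing cells.

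Acute phase genes are induced by interleukin 6 type cytokines in liver. Of 19 listed, 14 had a row and 9 were tested. Of these, 0 rose, 7 fell and 2 did not pass, with a median of -2.67, beside 22.8% higher and 24.3% lower over all genes tested. Haptoglobin (Hp, -4.72 ± 0.29), complement C3 (-3.6 ± 0.24) and serum amyloid Saa3 (-3.0 ± 0.23) fell most among those whose mean reached 1 CPM, with adjusted p of 0.00113, 0.00126 and 0.00177 (edgeR). The fibrinogen gene Fgb, scarcer and named after its values were seen, also fell (adjusted p = 0.0106, edgeR), with 22 and 31 counts in the 0 h libraries and 0 in both 24 h libraries. The exact 95% limits allow a decrease of as little as 4.81-fold in TRF1ΔN cells and 6.28-fold in Vp16-TRF1ΔN cells. C3 went from 201 to 12.1 CPM in TRF1ΔN cells and from 266 to 29.5 CPM in Vp16-TRF1ΔN cells. The 7 that fell were lower at 24 h than at 0 h within each line. As a line has only its 0 h and its 24 h library, no relation to Il11 and Lif can be read from this. The other two, Orm1 (0.523 and 0.81 CPM in TRF1ΔN cells, 0.116 and 0.0877 in the others) and Steap4 (1.09 and 1.21, 1.53 and 1.17 CPM), did not pass.

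Of 5 genes that govern shedding of the receptors 3 rose, 1 fell and 1 did not pass (median 0.29). Timp3, an inhibitor of the shedding protease ADAM17, rose by 4.86 ± 0.09 (adjusted p = 0.000738, edgeR), and Adam17 itself fell by 0.37 ± 0.08 (adjusted p = 0.0208). Rhbdf2, which carries ADAM17 to the surface, rose by 0.35 ± 0.08 and Adam10 by 0.29 ± 0.07, with adjusted p of 0.0214 and 0.0259 in edgeR and of 0.0968 and 0.0772 in DESeq2's Wald test.

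**Figure D4:**
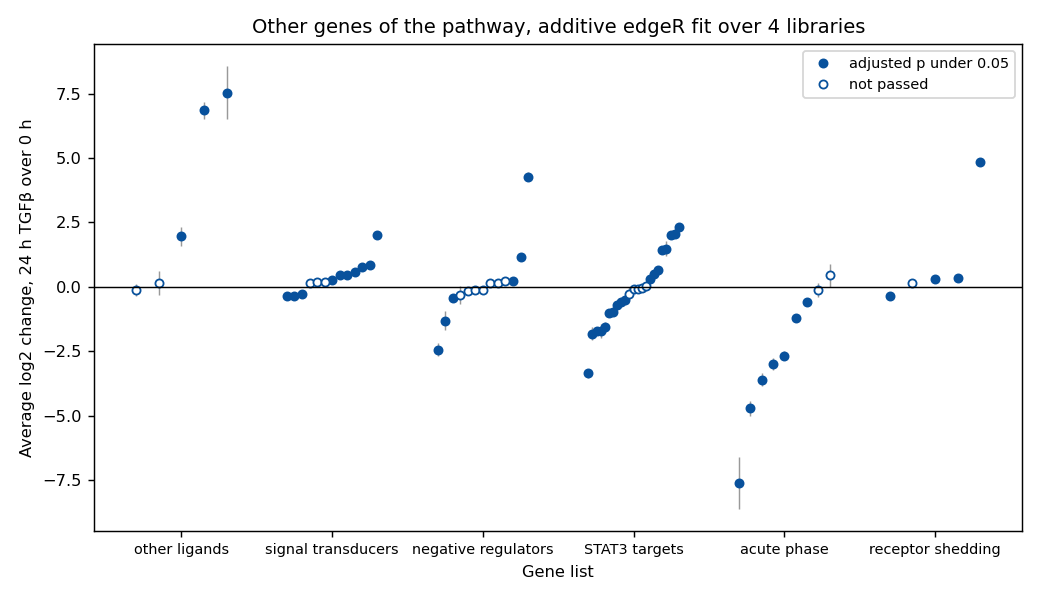
Average log2 change after 24 h of TGFβ for the tested genes of 6 lists, from the additive edgeR fit over 4 libraries, with SE as bars; filled points passed an adjusted p of 0.05. The outermost points, Osm and Fgb, have libraries with 0 counts, so their fitted values depend on the prior count. Of the acute phase genes 7 of 9 fell, whereas 3 of 5 further ligand genes rose.

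Averaged over both times, no gene passed for the line: 0 of 15042 genes (0.0% of them) had an adjusted p under 0.05 in edgeR's quasi-likelihood test, with 1862 at an unadjusted p under 0.05. DESeq2's Wald test called 47, of which 13 were higher and 34 lower in Vp16-TRF1ΔN cells. From the lists it called Timp3 (-1.64, adjusted p = 7.95e-22), Saa3 (-1.34, adjusted p = 0.000158), Timp1 (-0.65, adjusted p = 0.0153), C3 (0.83, adjusted p = 0.0332) and the lipocalin gene Lcn2 (-2.12, adjusted p = 2.41e-23). Lcn2 was named after its values were seen. It stood at 273 and 34.5 CPM in TRF1ΔN cells and 50.3 and 10.2 CPM in Vp16-TRF1ΔN cells, so the untreated libraries differed most. Timp3 was at 9.04 and 249 CPM against 2.71 and 84.2 CPM.

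The genes most like Il11 and Lif were sought by the Euclidean distance between centred log2 CPM over the 4 libraries, among 9675 protein-coding genes, predicted genes left out, whose mean reached 5 CPM. Nearest to Il11 were Tnfaip6, which encodes a hyaluronan-binding protein (distance 0.831), the matrix gene Tnc (0.986) and Nat8l (1.24). Tnc had 65 and 11129 counts in TRF1ΔN cells and 23 and 2322 in the other. At 0 h Tnfaip6 had 4 counts in TRF1ΔN cells and 0 in the other, and Nat8l had 0 in both lines. The distances of Tnfaip6 and Nat8l therefore depend on the prior count of 2. Each of these genes reached the mean of 5 CPM only through its 24 h libraries. Nearest to Lif were Ccn2, a matricellular protein gene (0.271), Pdgfb, a platelet-derived growth factor chain (0.279), and Marcksl1 (0.299). Ccn2 was at 77.2 and 613 CPM in TRF1ΔN cells and 78.6 and 256 CPM in Vp16-TRF1ΔN cells. That it was alike at 0 h and apart at 24 h, as Lif was, follows from its choice by this distance.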

How the data were processed

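Total RNA depleted of ribosomal RNA was sequenced, per the labels' protocols. Per the submitters' processing notes, FastQC, STAR, HTSeq and DESeq2 were used with build mm10; the sources used here state no version, annotation or strandedness, so these are not given. The authors deposited raw counts per gene and normalized log2 values. The latter equal log2 of the count divided by DESeq2's size factor, plus 1 (largest difference 5.15e-14), and served only as an alternative and for Il11.

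Symbols and coordinates came from GENCODE M21 (GRCm38, the same build as mm10; 21889 of 21971 genes matched). The 4 construct rows, 0.0129% to 0.0582% of the counts, were left out of library sizes and tests. Python 3.11.15, R 4.3.3, edgeR 4.0.16 and DESeq2 1.42.0 were used. Ratios of libraries have no test: log2 ratios use a prior count of 2, and intervals are exact (95%, Clopper-Pearson on the share of 1 library in both libraries' counts), or use Poisson variances for differences of responses. The floor for a count of 0 was 3 counts per library (0.0628 to 0.0877 CPM). Intervals and floors cover counting error only. The additive fit (filterByExpr by group, TMM, Benjamini-Hochberg adjustment) had prior degrees of freedom of 3.5. It was tested on simulated data without an interaction of line and TGFβ. Genes whose responses differ between the lines were therefore not covered by that simulation. SE was taken as the log2 change over the root of F.

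Named were all members, up to 3 called genes each way per list at a mean of at least 1 CPM, up to 2 each way for the line, and Il6, Osm, Il11ra2, Cntfr, Jak1, Stat3, Socs1, Cish and Il31ra whatever their values. Some genes named by this rule are counted in their lists but not reported here. The members and lists were chosen with earlier results of these data known. Alternatives covered scaling, filters, prior count, mitochondrial genes, dispersion, DESeq2 and the authors' values. The markers also listed were those of epithelial, mesenchymal, immune, endothelial, adipocyte and fibroblast cells.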

Additional observations from a re-analysis of the deposited data

How the results depend on the processing

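No paired analysis was possible because, with 1 library a group, the groups share fewer than 2 replicate numbers; the additive model does hold the line as a term, so it compares 0 h with 24 h within lines. Leaving out a library would leave no residual degree of freedom, so it was not done. DESeq2's Wald test called 2284 genes as higher after TGFβ, against 3436 in edgeR, and 2626 against 3652 as lower. It called 0 signal transducers as lower and 1 shedding gene as higher, where edgeR called 3 and 3. For the line, it called 13 genes as higher and 34 as lower, where edgeR called 0 and 0. These included 1 STAT3 target, 2 acute phase genes and 1 shedding gene as lower and 1 acute phase gene as higher. Without a filter on low counts edgeR called 28 and 81 genes for the line, with 1 STAT3 target, 2 acute phase genes and 1 shedding gene as lower. With filterByExpr by the model design, added after the data were seen, 3367 genes of 14305 were higher and 3589 lower after TGFβ and 0 were called for the line. The line value of Ptpn6 went from -0.05 to 0.01 with DESeq2, both far from the threshold. With total counts in place of TMM, Socs3 in Vp16-TRF1ΔN cells passed 2-fold (-1.02), so 1 member was counted as lower there. Without the minimum of 1 CPM, Lifr made 1 member lower in TRF1ΔN cells, and genes counted as higher and lower were 1900 and 1927 after TGFβ in that line, 181 and 206 for the lines at 0 h, 415 and 483 at 24 h, and 324 and 291 for the difference of responses. In the Vp16-TRF1ΔN line 1368 were then higher after TGFβ. At 24 h this turned the balance of 248 higher and 139 lower. The other counts of genes, 287 of 312 values over the alternatives, stayed within 1.5 times. The cause of these differences was not tested, beyond the genes each filter adds. Depth limits the genes with few counts, among them Lifr, Osm, Il6, Fgb and Ptprt.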
